A study of Mus musculus with 4 samples.

Results

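The 9 genes described here encode the subunits of protein phosphatase 2A (PP2A) that are known to work with cyclin G: the B' regulatory subunits Ppp2r5a, Ppp2r5b, Ppp2r5c, Ppp2r5d and Ppp2r5e, the catalytic subunits Ppp2ca and Ppp2cb, and the scaffold subunits Ppp2r1a and Ppp2r1b. Probes were chosen by gene name alone, not by their signal, and all 9 genes were found, with 13 of the 39397 probes that had a value on every array. Of these 13 probes, 12 were well above background on all 4 arrays, so that every gene was measured throughout, and the remaining probe, for a second transcript of Ppp2r1b, was so on 1 array. RNA came from mouse embryonic fibroblasts (MEFs) of the strain C57BL/6J, prepared from mid-gestation embryos, left untreated and collected in the logarithmic phase of growth. There was 1 array for CycG2-/- cells (G2KO), 1 for their CycG2+/+ wild type (WT), 1 for CycG1-/-CycG2-/- double knockout cells (DKO) and 1 for their CycG1+/+CycG2+/+ WT. The mutations are in the germline, so every cell of a culture carries them, and in the Ccng1 allele a neomycin cassette stands in place of the protein-coding exons. The study asked how cells behave without cyclin G1 and cyclin G2, and each knockout was compared with the WT array of its own pair.

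PP2A is a serine/threonine phosphatase built from a scaffold (A) subunit, a catalytic (C) subunit and 1 of many regulatory (B) subunits. The B subunit decides which substrates the enzyme meets and where in the cell. The B' family, also called B56, takes part in mitosis, Wnt signaling and the response to DNA damage. Cyclin G1 and cyclin G2 are unconventional cyclins that bind B' subunits, and the complex of cyclin G1 with PP2A is known to act on Mdm2, the ubiquitin ligase that limits p53.

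The arrays were first set against their labels. Ccng1, which encodes cyclin G1, had a signal of 1.66 times the 75th percentile of the array in the WT of DKO, and in DKO it did not rise well above background, which makes it at least 228-fold lower there. In the other pair it read 9.43 in the WT and 1.97 in the array labelled G2KO, so that it differed by a log2 ratio of -2.51 between the arrays labelled WT. The probe of Ccng2 did not set the arrays labelled CycG2-/- apart, with signals of 0.0907 times the 75th percentile in G2KO, 0.104 in its WT, 0.0616 in DKO and 0.0804 in the WT of DKO. Whether that probe lies in the deleted stretch is not given in the sources used here, so it checks nothing. The markers of cell types differed between the arrays. Of all genes compared, 20.3% passed 2-fold in DKO, 17.1% in the G2KO comparison and 21.6% between the WT arrays. All 7 mesothelial markers were at least 2-fold higher in DKO than in its WT, with a summed signal of 146 against 0.577 times the 75th percentile. On the 3 other arrays that sum stayed between 0.577 and 1.57, with Wt1, Upk3b and Upk1b not well above background. Of 8 fibroblast markers, 5 were at least 2-fold lower in DKO than in its WT, and the sum over all 8 lay between 222 and 403 on the 4 arrays. On the array labelled as WT in the G2KO pair, the fibroblast marker Pdgfra did not rise well above background. Thy1, Postn and Col3a1 were also dimmer there, with log2 ratios of G2KO to WT of 6.85, 4.26 and 3.78. The remaining 4 of the 8 fibroblast markers stayed under 2-fold in this pair. Of these, Col1a2 (0.60) and Pdgfrb (0.56) had the same sign, while Col1a1 (-0.55) and Vim (-0.34) ran the other way. The sum of 5 neural progenitor markers was 47.5 on the array labelled as WT in the G2KO pair and between 1.11 and 5.14 on the others. Pax6 ran against that sum. It was well above background only on the array labelled G2KO, where its log2 ratio to WT had a limit of 1.16. Foxa2 was brightest in DKO, at 3.57, with 2.46 on the array labelled as WT in the G2KO pair. For Pdgfra, En2, Foxa2 and Sox2 these labels give the reverse of the direction that the study's supplement lists for G2KO. The supplement also lists Xist as higher in G2KO, and ascribes this to those MEFs being of female origin. By that account the pair may differ in sex as well as genotype. Xist was not among the genes read here, so it was not used to check the labels. The supplement describes dye-swapped experiments for that comparison, whereas the arrays used here are single-color. The labels of the G2KO pair may thus be exchanged, so the direction of its ratios is in doubt. Its knockout array is called the array labelled G2KO throughout. With the labels exchanged, every ratio of the pair changes sign. The sum of 6 proliferation genes was 80.1 on the array labelled as WT in this pair, 42.5 on the array labelled G2KO, 21.3 in DKO and 23.7 in the WT of DKO. Sums over 4 endothelial markers, mostly from the brightest Kdr probe, were 3.07 to 4.42, with 1 gene past 2-fold in each comparison. A second Kdr probe read only 0.0051 to 0.0385, with a limit of its log2 ratio in DKO of 1.92. Sums over 4 macrophage markers were 0.587 to 0.768, with Cd68 past 2-fold in DKO. By their brightest probes 0 of 6 housekeeping genes passed 2-fold in any comparison, but other probes of Gapdh did, as far as -1.15 in the G2KO comparison and -1.60 between the WT arrays. The part of these differences in the values of the PP2A subunits was not tested, and in RNA from whole cultures fewer cells of a type and less RNA per cell cannot be told apart.

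With 1 array for each genotype there is no test between genotypes, and a difference of at least 2-fold was counted in its place. The pair of WT arrays gave the only view of how far preparations with the same label differ, as far as their labels hold. Between them the log2 ratios of the 24197 probes well above background on every array had an SD of 1.005, compared with 1.017 between DKO and its WT and 0.859 between the array labelled G2KO and its WT. Over all probes, the spread between DKO and WT was thus close to that between cultures that share a label. If the labels of the G2KO pair were exchanged, the SD between WT arrays would be 0.535, and 9.18% of genes would differ by 2-fold between them; their log2 ratio would be 0.46 for Ppp2r5a, -0.08 for Ppp2r5c, -0.15 for Ppp2r5d, -0.23 for Ppp2r5e and 0.03 for Ppp2r1b. This comparison, chosen after seeing the data, bears on every value between WT arrays given below.

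Each probe on these arrays is 60 bases long. For Ppp2r5c, the B'γ subunit that the study follows, and for Ppp2r1b, different probes of the gene gave different values. The first 30 bases of those probes are shown so that the values below can be tied to a transcript and a place; positions are those of the files, on mouse build mm9, and all 5 probes are on the forward strand.
Ppp2r5c, A_52_P27332, RefSeq transcript NM_012023, chr12:111820692-111820751: gattccccatgctaattgttcagcttgtat
Ppp2r5c, A_55_P2105873, transcript NM_001135001, chr12:111809756-111809815: ctctccagggaagaaaatatcttactaaac
Ppp2r5c, A_66_P139664, transcript NM_001135001, chr12:111799569-111799628: taaatgaattagaagaaattttagatgtaa
Ppp2r1b, A_55_P2053057, transcript NM_028614, chr9:50689663-50689722: ttggttggaaatgccacatggtacactcac
Ppp2r1b, A_55_P2053062, transcript NM_001034085, chr9:50702246-50702305: ctgtgcaaacaacagattactagttacttt
In the order of the gene, the Ppp2r5c probe that begins at base 3644 of its transcript lies farthest downstream and the one that begins at base 1264 of the other transcript lies farthest upstream. The transcript named for each of the 13 probes was found in a RefSeq table of GRCm38.p6, with the same gene symbol in 13 of 13 cases. Whether a probe lies in coding sequence or in an untranslated region was not worked out here.

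**Figure D1:**
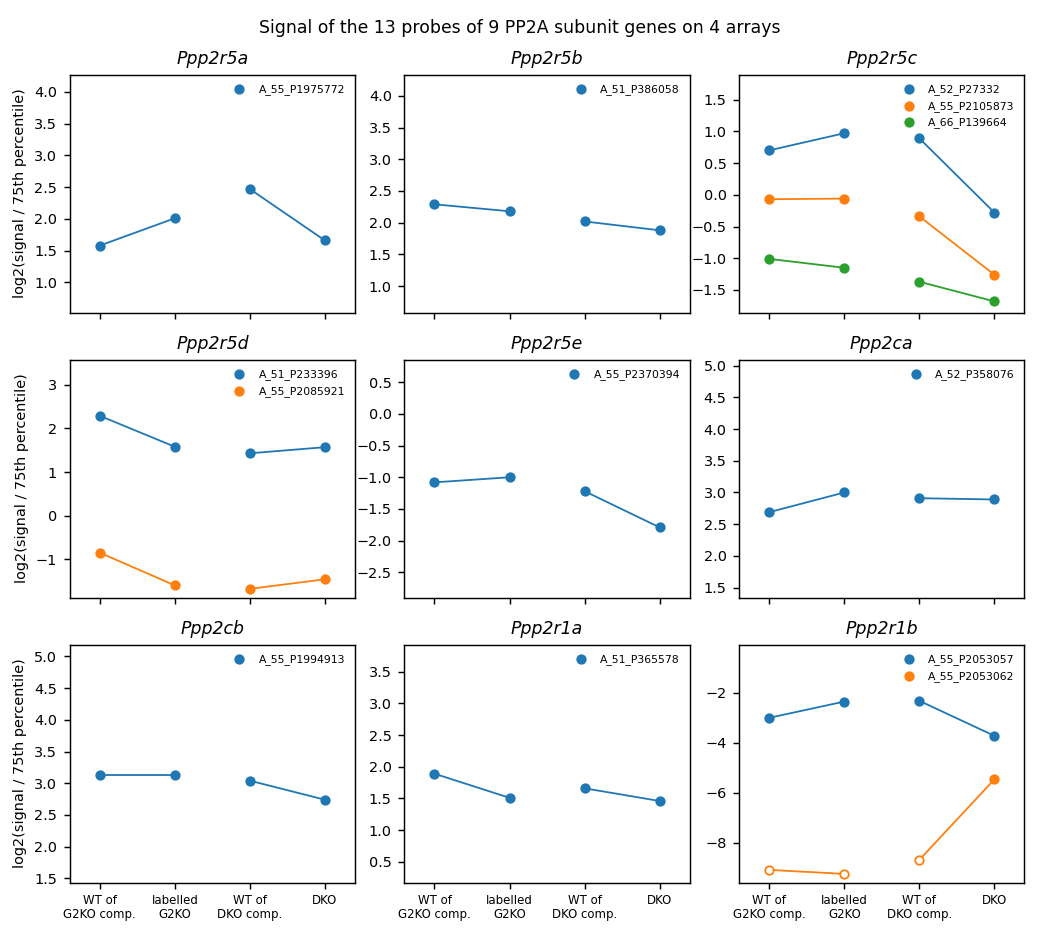
Signal of each of the 13 probes on the 4 arrays, as log2 of the signal over the 75th percentile of the array (vertical axis, in steps of doubling). Each point is 1 array, colours mark the probes of a gene, lines join a knockout to its own WT, and open points were not well above background; the brightest Ppp2r5c probe falls from 1.85 to 0.823 times the 75th percentile between WT and DKO, while Ppp2ca stays at 7.52 and 7.40.

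Among the B' subunits, Ppp2r5c had the lowest value in DKO relative to its WT. Its brightest probe, A_52_P27332, read 1.85 times the 75th percentile in the WT of DKO and 0.823 in DKO, with 1.63 in the other WT and 1.96 in the array labelled G2KO. The 3 arrays other than DKO lay close together, and DKO lay below all of them. The log2 ratio of DKO to its WT was -1.17, which is 2.25-fold lower, with an error of 0.20 from the spot errors of the scanner software. The ratio between the WT arrays was 0.19 for the same probe, and that of the array labelled G2KO to its WT was 0.27. The middle probe, A_55_P2105873, gave 0.789 in the WT of DKO and 0.419 in DKO, a log2 ratio of -0.91, and 0.951 and 0.961 in the WT and knockout of the other pair. The upstream probe, A_66_P139664, gave 0.387 and 0.312, a log2 ratio of -0.31, which is inside the -0.36 between the WT arrays for that probe. All 3 probes were lowest in DKO, but they disagreed on the size of the difference, from 1.24-fold to 2.25-fold.

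Ppp2r5a, the B'α subunit, differed as much between the WT arrays as between DKO and its WT. Its signal was 5.53 times the 75th percentile in the WT of DKO, 3.15 in DKO, 3.00 in the WT of the G2KO comparison and 4.01 in the array labelled G2KO. The WT of DKO stood above the other arrays, and DKO was within 0.07 on the log2 scale of the other WT. The log2 ratios were -0.81 for DKO, 0.42 for the array labelled G2KO and 0.88 between the WT arrays.

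Ppp2r5d, the B'δ subunit, moved in another direction. Its probe A_51_P233396 read 4.88 times the 75th percentile in the WT of the G2KO comparison and 2.99, 2.98 and 2.70 in the array labelled G2KO, DKO and the WT of DKO, so that only the first of these stood apart. The log2 ratio was -0.71 in the G2KO comparison, 0.14 in the DKO comparison and -0.85 between the WT arrays. A second probe of the gene gave -0.74, 0.22 and -0.83, the same pattern. The files place 34 bases of the first probe on mm9 (chr17:46819940-46819973) and 60 of the second (chr17:46820992-46821051), both on the reverse strand.

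Ppp2r5e, the B'ε subunit, read 0.429 times the 75th percentile in the WT of DKO and 0.289 in DKO, against 0.474 and 0.501 in the WT and knockout of the other pair. DKO was again the lowest of the 4, with a log2 ratio to its WT of -0.57, while the WT arrays differed by -0.15. Ppp2r5b, the B'β subunit, read 4.05 and 3.67 in the WT and DKO and 4.9 and 4.54 in the WT and the array labelled G2KO. Its log2 ratios of -0.14 in DKO and -0.11 in the other pair were smaller than the -0.28 between the WT arrays. Summed over the 5 B' genes, the signal was 14.6 times the 75th percentile in the WT of DKO, 10.9 in DKO, 14.9 in the other WT and 14 in the array labelled G2KO.

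The catalytic subunits stayed within a narrow range. Ppp2ca, which encodes the α isoform of the enzyme's active subunit, read 7.52 times the 75th percentile in the WT of DKO, 7.40 in DKO, 6.47 in the other WT and 7.99 in the array labelled G2KO. Its range over the 4 arrays was 0.30 on the log2 scale, the narrowest of the 9 genes, and the ratio of DKO to its WT was -0.02. Ppp2cb, the β isoform, read 8.22 and 6.69 in the WT and DKO, and 8.74 and 8.75 in the WT and the array labelled G2KO. Its log2 ratio was -0.30 in DKO, 0.00 in the array labelled G2KO and -0.09 between the WT arrays, against a spot error of 0.20.

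The scaffold subunits differed from each other in how they varied. Ppp2r1a, which encodes the α scaffold, read 3.16 times the 75th percentile in the WT of DKO and 2.75 in DKO, and 3.70 and 2.84 in the WT and knockout of the other pair. Its probe spans 894 bases of mm9 in the files, so it crosses at least 1 intron. Its log2 ratios were -0.20 in DKO, -0.38 in the array labelled G2KO and -0.23 between the WT arrays. Ppp2r1b, the β scaffold, gave the lowest ratio of all members in DKO. Its probe for transcript NM_028614 read 0.20 in the WT of DKO, 0.0761 in DKO, 0.125 in the other WT and 0.197 in the array labelled G2KO. DKO was the lowest array and the WT of the G2KO comparison the next, and the log2 ratio of DKO to its WT was -1.40 (2.63-fold lower), compared with 0.68 between the WT arrays. With normexp background correction the ratio in DKO was -0.90, short of 2-fold.

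The second probe of Ppp2r1b, for transcript NM_001034085, ran the other way. It was well above background in DKO, at 0.0227 times the 75th percentile, and on none of the 3 other arrays, where it read 0.00166, 0.00185 and 0.00244. DKO was therefore at least 2.22-fold higher than its WT for this transcript. The median over both probes was a log2 ratio of -0.12 in DKO, itself a lower limit because the second probe gives only one. The lower value in DKO thus holds for the probe of 1 of its 2 transcripts. The log2 ratio of the NM_028614 probe less that of Ppp2r1a was -1.20 in DKO, 1.03 in the other pair and 0.91 between the WT arrays. The log2 ratio of the brightest Ppp2r5c probe less that of Ppp2ca was -1.15 in DKO, and -0.03 both in the other pair and between the WT arrays. The other Ppp2r5c probes had smaller log2 ratios in DKO, -0.91 and -0.31, so this difference depends on the probe.

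**Figure D2:**
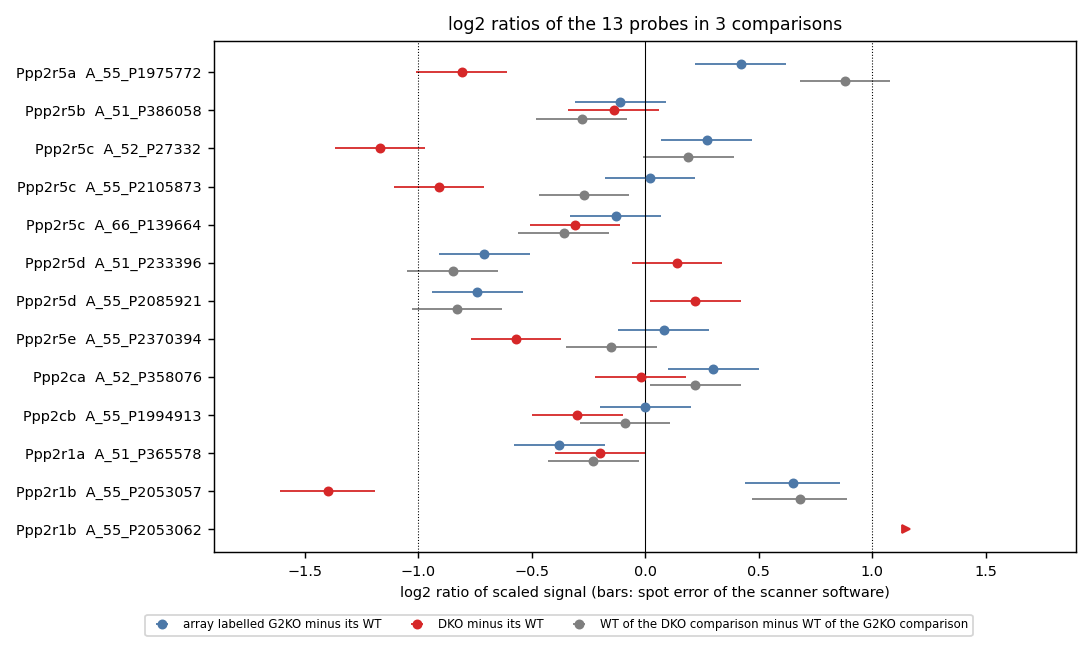
The log2 ratio (horizontal axis) of each of the 13 probes in 3 comparisons; bars are the spot errors of the scanner software, not errors between cultures, and the triangle is a lower limit. Dotted lines mark a 2-fold difference; in DKO the first Ppp2r5c probe (-1.17) and the first Ppp2r1b probe (-1.40) lie past it, and the second Ppp2r1b probe lies past it on the other side (at least 1.15).

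Set beside all genes compared, the share of members past 2-fold was near that of all genes in DKO. There, 2 of 9 members, Ppp2r5c and Ppp2r1b, were at least 2-fold lower than in the WT and 0 were higher, whereas 20.3% of 22876 genes passed 2-fold, 9.63% lower and 10.6% higher. In the G2KO comparison 0 of 9 members passed 2-fold, against 17.1% of 22790 genes, 8.39% lower and 8.73% higher. Between the WT arrays it was 0 of 9, against 21.6% of 22139 genes, 9.93% lower and 11.6% higher. At 1.5-fold it was 3 of 9 members in DKO, 2 in the G2KO comparison and 3 between the WT arrays, against 38.1%, 37.5% and 40.6% of genes, and at 4-fold it was 0 of 9 in each, against 8.07%, 5.72% and 7.37%. The median log2 ratio of the members was -0.30 in DKO, where that of all genes was 0.03, 0.08 in the G2KO comparison, where it was -0.17, and -0.09 between the WT arrays, where it was -0.08. In DKO, 8 of 9 members were below 0, all but Ppp2r5d. DKO held the lowest of the 4 values for 6 of the 9 members and the highest for 0, while over 19466 genes well above background on every array it held the lowest for 31.0% and the highest for 28.5%. The median range over the 4 arrays was 0.79 on the log2 scale for the members and 0.80 for those genes. Of all genes compared in DKO, 7.80% had a lower ratio than Ppp2r5c and 6.22% a lower one than Ppp2r1b.

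**Figure D3:**
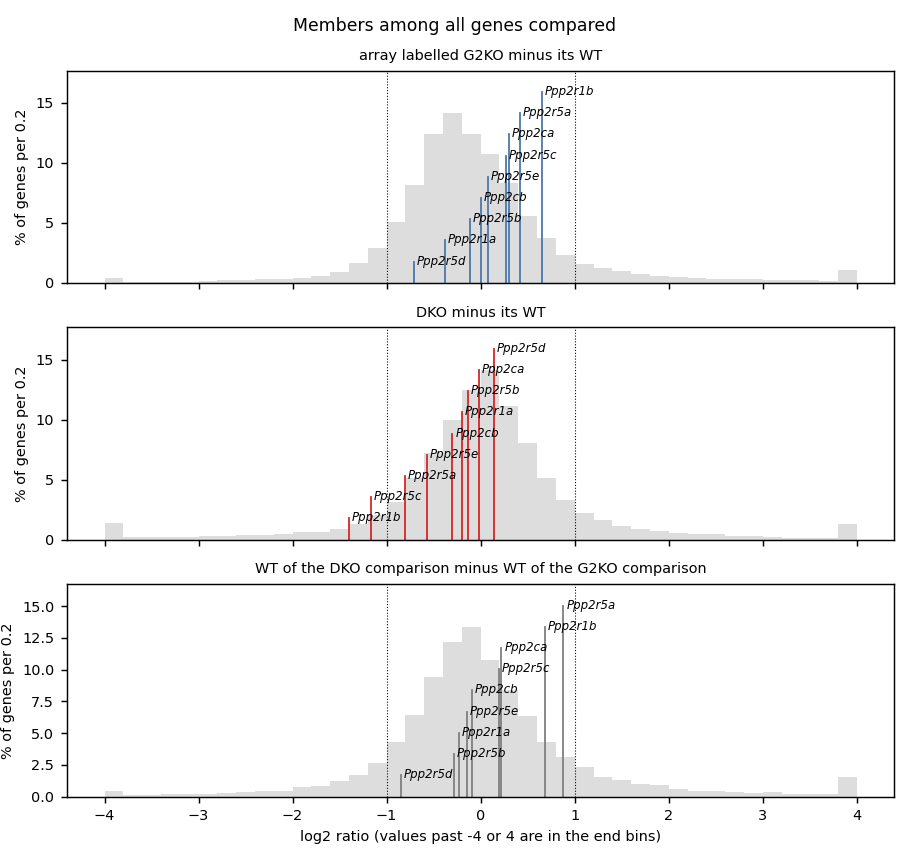
Distribution of the log2 ratios of all genes compared (grey bars, percent of genes per step of 0.2) with the 9 members marked by lines whose heights only separate their names, in 3 comparisons. Dotted lines mark a 2-fold difference; in DKO 8 of 9 members lie below 0 and 2 lie past the dotted line, and in the other comparisons 0 do.

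The choice of WT array changed several of these values. Against the WT of the G2KO comparison, DKO had log2 ratios of -0.98 for Ppp2r5c, -0.72 for Ppp2r1b, 0.07 for Ppp2r5a and -0.71 for both Ppp2r5d and Ppp2r5e, and 0 of 9 members passed 2-fold. By its brightest probe, Ppp2r5c was lower in DKO than on each of the other arrays, by at least 0.98 on the log2 scale. Its middle and upstream probes came nearer, with log2 ratios of DKO to its WT of -0.91 and -0.31. Ppp2r5e was lower in DKO than on each of the other arrays by at least 0.57. Ppp2r5a was lower in DKO only than on 2 of the 3 other arrays. Set against the WT of DKO, G2KO as labelled had log2 ratios of -0.46 for Ppp2r5a, 0.15 for Ppp2r5d and -0.03 for Ppp2r1b, in place of 0.42, -0.71 and 0.65.

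A test was possible only with both WT arrays taken as a group. limma, with Benjamini-Hochberg adjustment over 30344 probes, gave Ppp2r5c in DKO a log2 difference of -1.08 (SE 0.46, adjusted p = 0.75) and Ppp2r1b -1.06 (SE 0.55, adjusted p = 0.829). The second Ppp2r1b probe had a difference of 3.42 (SE 0.49, adjusted p = 0.314) in the same limma fit, which used its signals below background as measured. The value given for Ppp2r5c is that of its brightest probe, and the middle and upstream probes had differences of -1.05 (SE 0.46) and -0.49 (SE 0.48). This fit has 1 residual degree of freedom, which comes from the WT arrays, and takes the single knockout arrays to vary as those do. It called 0 probes (0%) in DKO and 0 in G2KO as labelled after adjustment, with 2491 probes (8.21%) and 474 probes (1.56%) at an unadjusted p under 0.05. With both arrays labelled CycG2-/- set against both WT arrays, limma called 0 probes, with 335 (1.1%) at an unadjusted p under 0.05, and the adjusted p of every member was 1. With the labels of the G2KO pair exchanged (chosen after seeing the data), limma called 692 probes (2.28%) in DKO, 0 of them from a member. The differences were -1.21 (SE 0.27) for Ppp2r5c, and -1.38 (SE 0.27) and 3.50 (SE 0.38) for the probes of Ppp2r1b. That exchange puts arrays that are more alike together as WT, with an SD of log2 ratios of 0.535 in place of 1.005. The residual degree of freedom comes from those arrays, so smaller errors and more calls can follow from the regrouping alone. The 692 calls therefore cannot bear on the labels or on the members.

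The genes around the members in the PP2A system were followed as fixed lists. Of all genes compared, 20.3% passed 2-fold in DKO, 17.1% in the G2KO comparison and 21.6% between the WT arrays. Of 10 other B subunit genes, which give PP2A other substrates, 2 were at least 2-fold lower in DKO than in its WT and 2 higher, 1 was lower in the G2KO comparison, and 2 were lower in the WT of DKO than in the other WT. The lower genes in DKO were Ppp2r3a, a B'' subunit, with a log2 ratio of -1.29, and Strn3, a striatin that joins PP2A to the STRIPAK complex, with -1.02. Ppp2r2b, the Bβ subunit best known from brain, stood apart from the rest. It read 0.468 times the 75th percentile in DKO and 0.0635 in the WT of the G2KO comparison, and stayed dim, with no signal well above background, in the WT of DKO and in G2KO as labelled. The limit of its log2 ratio was thus 5.52 in DKO, -3.27 in the G2KO comparison and -2.64 between the WT arrays, each for a difference of at least that size. A second Ppp2r2b probe gave a limit of 2.91 in DKO. Ppp2r2c, the Bγ subunit, was well above background on the same 2 arrays, with a limit of 1.56 in DKO. Ppp2r2a, the ubiquitous Bα subunit, had log2 ratios of 0.01 in DKO and 0.07 in the G2KO comparison.

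Of 13 genes that regulate PP2A, such as its methyltransferase Lcmt1, its methylesterase Ppme1 and inhibitor proteins, 1 passed 2-fold in DKO and 0 in the G2KO comparison. Among all genes 20.3% and 17.1% did, and 21.6% between the WT arrays. The gene in DKO was Anp32e, of the acidic nuclear phosphoprotein family of PP2A inhibitors, with a log2 ratio of -1.12. Between the WT arrays 3 passed, all lower in the WT of DKO: Cip2a, an inhibitor of PP2A, at -3.06, Mastl, the Greatwall kinase that restrains PP2A in mitosis, at -2.88, and Anp32e at -1.34. A second Anp32e probe gave -0.32 in DKO in place of -1.12. The WT of DKO was also the array on which 5 of 6 proliferation genes were at least 2-fold lower than in the other WT. The part of that difference in Cip2a and Mastl was not tested. Of 11 related phosphatase genes, those of PP1, PP4, PP5 and PP6, 0 passed 2-fold in any of the 3 comparisons, with medians of -0.30 in DKO, -0.25 in the G2KO comparison and -0.17 between the WT arrays.

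Of 16 genes for cyclin G and for proteins on which PP2A acts or with which it works, 3 were at least 2-fold lower and 1 higher in DKO than in its WT. Among all genes 20.3% passed 2-fold there, 9.63% lower and 10.6% higher. Beside Ccng1, the lower genes were H2afx, the histone variant phosphorylated at DNA breaks, with a log2 ratio of -1.03, and Myc, a substrate of PP2A, with -1.01. Between the WT arrays H2afx differed by more, at -1.57, and Myc by 0.50. Mdm2 was higher, at 32.4 times the 75th percentile in DKO against 6.12 in its WT, a log2 ratio of 2.40. Between the WT arrays it differed by -1.66, and the log2 ratio of DKO to the WT of the G2KO comparison was 0.75, short of 2-fold. In G2KO as labelled Mdm2 was lower, at 7.58 against 19.3. In that comparison 3 genes were at least 2-fold lower, namely Ccng1 at -2.26, Mdm2 at -1.35 and, close to the threshold, Bub1b, a spindle checkpoint kinase that binds B' subunits. Of all genes, 8.39% were lower in that comparison. Between the WT arrays 7 genes were lower in the WT of DKO, against 9.93% of all genes. They were led by Bub1b at -3.47, Sgol2 at -2.83, Ccng1 at -2.51 and Sgol1 at -2.36. Sgol1 and Sgol2 encode the shugoshins, which bring PP2A with B' subunits to the centromere. The shugoshins differed little between DKO and its WT, with log2 ratios of 0.03 for Sgol1 and -0.08 for Sgol2.

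**Figure D4:**
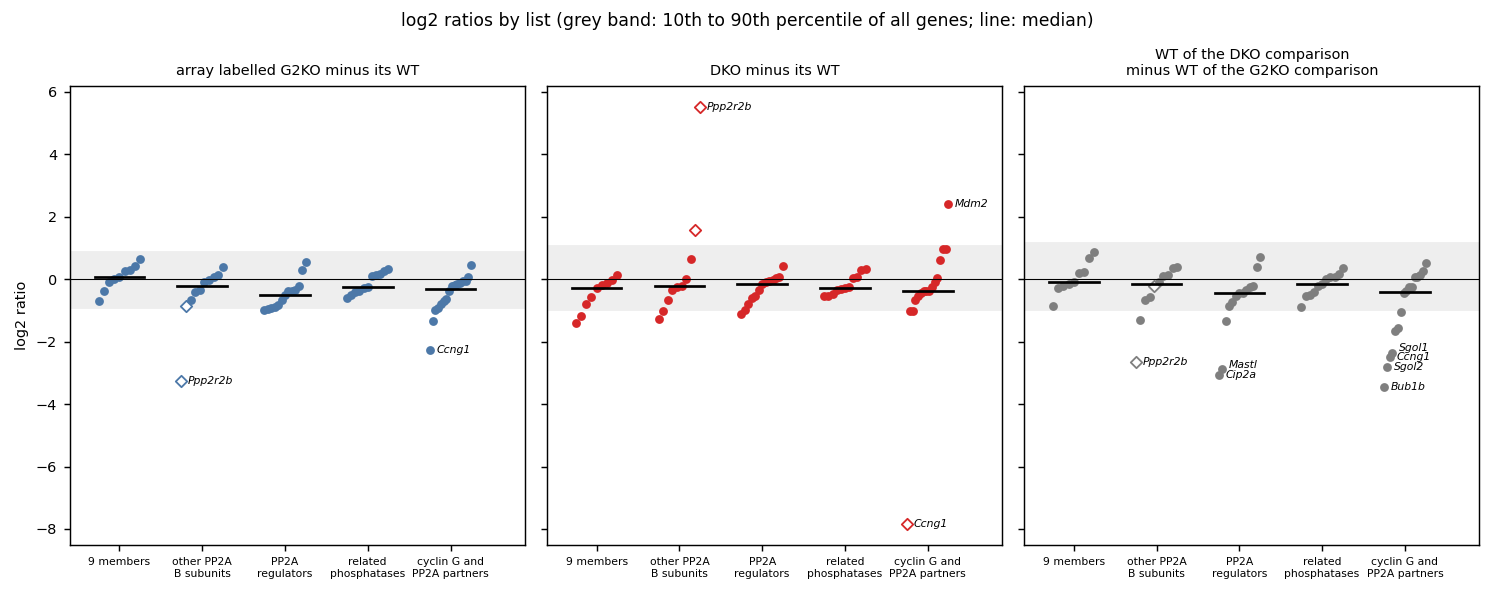
The log2 ratio (vertical axis) of every gene in the list of members and in 4 lists of related genes, in 3 comparisons; each point is 1 gene, open diamonds are limits, black lines are medians and the grey band holds the 10th to the 90th percentile of all genes. The 9 members lie between -1.40 and 0.88 in all 3, and the genes named in the plot, led by Ppp2r2b at 5.52 and Ccng1 at -7.83 in DKO, lie past 2 in size.

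The genes with the pattern most like that of Ppp2r5c over the 4 arrays were sought among 19465 other genes well above background on every array, by the Euclidean distance between log2 values centred on their own mean. The nearest were B630019K06Rik, at a distance of 0.043, then 4930524J08Rik, Raph1, Lyar and Pcid2, at up to 0.087. Raph1 encodes a protein of the lamellipodium, Lyar a nucleolar protein and Pcid2 a part of an mRNA export complex. Their log2 ratios in DKO lay between -1.05 and -1.25, near that of Ppp2r5c because they were chosen by these same values. Of the members, Ppp2r1b was the nearest to Ppp2r5c, at rank 317 with a distance of 0.36, and Ppp2r5e the next, at rank 649. With 4 values for each gene, many genes fall close to any given pattern.

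The promoters of genes with the lowest DKO values are shown next to that of Ppp2ca, the member with the narrowest range, as the sequence around the start of each. RefSeq promoters of build GRCm38.p6, 250 bases before to 50 after a start, were found for 7 of the 9 members and gave 9 windows; Ppp2cb and Ppp2r5e had no entry. Capitals mark matches, on either strand, to the CRE (TGACGTCA), the GC box (GGGCGG), the CCAAT box (CCAAT) and the TATA box (TATAAA). The GC boxes of the first Ppp2r5c window overlap one another in 1 place.
Ppp2r5c, chr12:110447272-110447571, forward strand: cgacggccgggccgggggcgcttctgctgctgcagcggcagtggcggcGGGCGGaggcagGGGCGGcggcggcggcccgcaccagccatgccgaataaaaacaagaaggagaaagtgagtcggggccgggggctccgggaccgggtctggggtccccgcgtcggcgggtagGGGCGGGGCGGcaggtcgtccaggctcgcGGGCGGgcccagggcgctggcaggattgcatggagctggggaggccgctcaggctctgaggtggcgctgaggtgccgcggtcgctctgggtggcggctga
Ppp2r5c, chr12:110485547-110485846, forward strand: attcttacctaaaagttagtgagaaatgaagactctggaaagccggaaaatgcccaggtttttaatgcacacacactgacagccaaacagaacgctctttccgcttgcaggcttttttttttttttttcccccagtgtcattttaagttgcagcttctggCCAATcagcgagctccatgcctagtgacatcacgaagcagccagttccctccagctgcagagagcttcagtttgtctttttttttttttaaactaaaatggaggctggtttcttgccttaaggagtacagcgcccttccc
Ppp2r1b, chr9:50856674-50856973, forward strand: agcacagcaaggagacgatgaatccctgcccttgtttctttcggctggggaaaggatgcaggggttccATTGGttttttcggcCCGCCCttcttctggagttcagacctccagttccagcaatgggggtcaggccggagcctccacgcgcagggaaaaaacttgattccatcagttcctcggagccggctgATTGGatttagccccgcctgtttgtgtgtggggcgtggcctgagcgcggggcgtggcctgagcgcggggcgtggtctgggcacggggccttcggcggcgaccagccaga
Ppp2ca, chr11:52098574-52098873, forward strand: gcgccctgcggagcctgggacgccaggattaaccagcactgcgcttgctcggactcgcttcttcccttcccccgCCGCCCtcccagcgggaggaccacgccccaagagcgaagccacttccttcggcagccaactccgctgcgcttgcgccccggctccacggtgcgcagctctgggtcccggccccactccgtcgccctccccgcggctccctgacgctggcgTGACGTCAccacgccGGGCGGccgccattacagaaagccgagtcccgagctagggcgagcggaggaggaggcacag
The Ppp2r5c windows differed from each other, with 75.7% and 44.3% G and C, against a median of 52.7% over 32851 promoters of the same length. The first held 5 matches to the GC box and none to the CCAAT box, the second 1 CCAAT box and no GC box. The window of Ppp2r1b held 1 GC box and 2 CCAAT boxes. A GC box was found in 8 of the 9 member windows and in 35.7% of all promoters, a CCAAT box in 6 and in 37.4%. The windows of Ppp2r5d, chr17:46704953-46705252 and chr17:46704977-46705276, overlap and hold the same numbers of these matches. The 9 windows are therefore not separate promoters. Apart from the second Ppp2r5c window, the member windows had 57.3% to 75.7% G and C. Promoters of like G and C content were not compared. The CRE was found in 1 member window, that of Ppp2ca, and in 1.79% of all promoters, and the TATA box in 0 of 9 and in 13.6%. These are matches of letters in a window, and no array measured binding to them.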

How the data were processed

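Total RNA of MEFs in 4 preparations, carrying the dye Cy3, was measured on single-color Agilent mouse arrays on 1 slide, read in 1 scan. The authors' deposited values are the signal intensity of each spot from Agilent Feature Extraction (version 10.5.1.1 in the processing notes, 10.7.3.1 in the file headers), corrected for background and spatial trends and not scaled between arrays. The deposited value table holds the same intensities (largest log2 difference 0).

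Here control spots and spots marked as outliers (107 to 140 per array) were left out, spots of a probe were averaged, and each signal was divided by the 75th percentile of its array (1589.3 to 2241.6). No spot was saturated. Between 64.96% and 72.2% of probes were well above background, and spots of the same probe differed by a median SD of 0.0581 to 0.0929 on the log2 scale. The spot errors of the scanner software were combined into the error of a ratio. The number of arrays limits the precision. A pair of arrays was compared at probes that rose well above background on either of them. If the other was dim, its signal was raised, where lower, to the lowest signal well above background there, and the ratio is a limit. Where a gene had several probes, the brightest on average stood for it. The probes named are every probe of the members, the genes of fixed lists, and the 5 genes nearest in pattern to Ppp2r5c. The members and lists were chosen with earlier results of these data known. Arrays of 1 group may differ for technical reasons, and p-values measure only the spread between these arrays.

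Ratios were computed with Python 3.11.15, numpy 2.4.6 and pandas 2.3.3, and fits with limma 3.58.1 in R 4.3.3, both tested on simulated data. Alternatives were normexp background correction (offset 50), quantile, median or no scaling, the deposited table, flagged spots kept, other filters on dim probes, the median over probes, other WT arrays, and thresholds of 1.5-fold and 4-fold. The labels of the G2KO pair exchanged and a limma fit with the pair as a block were added after seeing the data. Positions of probes were taken from the files, on mm9. Names and promoters are from RefSeq tables of GRCm38.p6, whose coordinates were not mixed with mm9.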

Additional observations from a re-analysis of the deposited data

Results flagged for a closer look

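These genes of the fixed lists had log2 ratios past 2-fold in opposite directions in the knockout comparisons, given for the array labelled G2KO against its WT and then for DKO against its WT. Ppp2r2b, the Bβ subunit of PP2A, had limits of -3.27 and 5.52, and Mdm2 had -1.35 and 2.40. Among the fibroblast markers, Col3a1 had 3.78 and -1.74, Thy1 6.85 and -4.17, Pdgfra a limit of 7.93 and then -7.46, and Postn 4.26 and -7.54. The mesothelial marker Msln had -1.20 and 7.67, and the neural progenitor marker Foxa2 had limits of -8.55 and 8.45. With 1 array for each genotype the difference between the comparisons was not tested. If the doubted labels of the G2KO pair were exchanged, the first value of each gene would change sign and both would run the same way. That follows from choosing genes with opposite signs, so it cannot bear on the labels. Ccng1 (-2.26 and a limit of -7.83), Krt18 (limits of 2.24 and 11.23) and Krt19 (4.18 and 4.32) passed 2-fold in the same direction. With the labels exchanged, those genes would run in opposite directions.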

How the results depend on the processing

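Of 243 values of single members recomputed under the alternatives, 228 moved by less than the SD of the members' log2 ratios between the WT arrays (0.524). The other 15 moved by more, 6 of them with the WT array of the other comparison and 8 with the labels of the G2KO comparison exchanged (chosen after seeing the data). As reversed 0 were counted, since only a value past 2-fold could be. This SD rests on the doubted labels, and with them exchanged it would be 0.211. It is also wider than the shift of 0.50 without scaling given below. No scaling and the deposited table hold the same intensities, so their 27 values each repeat one another. The number of members past 2-fold in DKO was 2, and it was 1 with normexp (Ppp2r1b at -0.90). It was 0 with the median over all probes of a gene (Ppp2r5c at -0.91 and Ppp2r1b at a lower limit of -0.12). It was also 0 with the WT array of the other comparison and 0 at 4-fold. For the array labelled G2KO it was 0, and it was 1 with no scaling and with the deposited value table (Ppp2r1b at 1.15), and 2 at 1.5-fold. Between the WT arrays it was 0, and it was 1 with median scaling (Ppp2r5d at -1.04), 1 with no scaling and with the deposited value table (Ppp2r5a at 1.13), and 3 at 1.5-fold. Without scaling, the median log2 ratio of all genes shifted by 0.50 for the array labelled G2KO and by 0.25 between the WT arrays, and with median scaling by -0.18 between the WT arrays. The median of the members in DKO stayed between -0.20 and -0.43 under all alternatives, that between the WT arrays between -0.27 and 0.15, and that in the G2KO comparison between 0.02 and 0.58, or -0.08 with its labels exchanged. limma called 0 probes with quantile normalization, with normexp and with the stricter filter on dim probes. With the labels exchanged it called 692 probes for DKO and 0 in the other fits. Those calls can follow from grouping more similar arrays as WT, so they cannot bear on the labels. The labels give no replicate numbers. With each knockout and its own WT as a block (a paired fit added after seeing the data, with 1 residual degree of freedom), limma called 0 probes, with 609 at an unadjusted p under 0.05. No replicate could be left out, since each genotype has 1 array. Values near background limit the second probe of Ppp2r1b and the probe of Ppp2r2b to bounds.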
